A study of Mus musculus with 9 samples.

Results

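The genes described here are 10 chromatin remodellers: the ISWI ATPases Smarca1 and Smarca5, the ISWI partners Bptf, Baz1a, Baz1b and Baz2a, the INO80 family ATPases Ino80, Srcap and Ep400, and Atrx. They were found by gene name, 10 of the 55414 genes listed, and all 10 had enough reads to be tested. RNA was sequenced from mouse round spermatids (RS), the haploid germ cells that follow meiosis, to ask how transcript levels respond when 2-hydroxyglutarate is manipulated. WT cells from testis spent 24 h in culture in 1 of 3 conditions: vehicle, which was 0.15% DMSO, oxamate at 24 mM, or the same dose of oxamate together with octyl-L2HG at 0.3 mM. All groups received the same final DMSO. Oxamate inhibits lactate dehydrogenase, which makes L-2-hydroxyglutarate (L-2HG) in these cells, and octyl-L2HG is its cell-permeable ester. Each group has 3 libraries, and they carry the numbers 1 to 3 (vehicle), 4 to 6 (oxamate) and 7 to 9 (oxamate and octyl-L2HG, called both compounds here). Per the methods, RS were isolated from mice in which Stra8-iCre, active in germ cells from the spermatogonial stage, switches on a tdTomato reporter. No group received octyl-L2HG without oxamate.

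Chromatin remodellers use ATP to slide, space, evict or exchange nucleosomes. ISWI enzymes slide and space nucleosomes, and the partner protein helps to direct where the complex works. Of the INO80 family enzymes, SRCAP and EP400 put the histone variant H2A.Z into nucleosomes. INO80 slides and spaces nucleosomes and has been linked to H2A.Z turnover. ATRX deposits histone H3.3 with its partner DAXX, above all at pericentric heterochromatin and telomeres. In RS the chromatin is still built on nucleosomes, before histones are exchanged for transition proteins and protamines.

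The libraries held between 32339533 and 39888396 counted reads. The 8 round spermatid markers summed to normalized counts (read counts divided by the size factor of the library) of 60841 to 62102 with vehicle, 55253 to 57704 with oxamate and 55218 to 56746 with both compounds, and 4 of the 8 were lowered in each comparison (Tnp1, Tnp2, Prm1 and Prm2), while 2 were raised with both compounds against vehicle. The 6 pachytene spermatocyte markers summed to 18408 to 21422 over all libraries, and 1 of them was raised with oxamate against vehicle. Somatic markers were low, with sums of 2.31 to 7.62 for 5 Sertoli cell markers, each under 10 reads in every library, and of 72.4 to 123 for 3 leukocyte markers, and spermatogonial markers summed to 189 to 208 with vehicle and 226 to 248 in the other groups. Whether these shifts play a part in the results was not tested, and in bulk RNA fewer cells of a type and less RNA per cell cannot be told apart. Oxamate library 4 stood apart from libraries 5 and 6 in the first 2 principal components, so counts are also given without it. The sources do not say that the 3 libraries of a group came from separate animals, so p-values measure the spread between these libraries, which may be technical.

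The 10 genes covered a wide range of levels. Levels of different genes are compared as RPKM, the reads per kilobase of exon scaled to the counted reads of the library, as mean and SD of the 3 vehicle libraries. Ep400, the large ATPase of the TIP60-EP400 acetyltransferase complex, was highest at 50.5 ± 1.76, followed by Baz2a (TIP5, the partner of SMARCA5 in the nucleolar complex NoRC) at 38.7 ± 2.97. Smarca5, which encodes the ISWI ATPase SNF2H, stood at 12.7 ± 1.09, and Bptf, the largest subunit of the nucleosome remodelling factor NURF, at 10.2 ± 1.01. Baz1a, which encodes ACF1 of the ACF and CHRAC complexes, stood at 5.52 ± 0.300. Ino80, the ATPase of the INO80 complex, was at 0.973 ± 0.0996 and Baz1b, which encodes WSTF of the WICH complex, at 0.952 ± 0.0594, a difference within their spread. The remaining 3 genes were far lower: Srcap, the ATPase of the SRCAP complex, at 0.0782 ± 0.0175, Smarca1, which encodes the ISWI ATPase SNF2L, at 0.0185 ± 0.00331, and Atrx at 0.0112 ± 0.00272. Smarca1 rested on 39 reads over all 9 libraries and Atrx on 104, so the order of these genes at the bottom is uncertain.

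The Srcap value is uncertain. In the GENCODE M21 annotation 9738 of its 15783 exon bases are also exons of a gene model on the same strand, Gm42715, and counting that drops reads shared by 2 genes would lose them. The counting mode was not checked, and the counts were made on another annotation. Gm42715 itself held 1 to 12 reads per library. If every counted Srcap read came from the 6045 exon bases not shared on that strand, its level would be 0.204 ± 0.0456. This is a rescaling of the whole-gene value, and reads over those bases were not counted separately. The rescaled level is still below Baz1b and Ino80. Srcap also shares 522 exon bases with 1700008J07Rik on the opposite strand, which held 2836 to 3854 reads per library, and the strand setting of the counting is not given in the sources used here. For the other members such overlaps covered at most 346 bases of exon.

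The lowest genes, Smarca1 and Atrx, are the 2 X-linked members, and the other 8 are autosomal. Across all genes tested, the median level, averaged over all 9 libraries rather than vehicle alone, was 0.319 for 854 X-linked genes. It was 0.592 for 23925 autosomal genes. In the 3 paralog pairs with an X-linked gene, which were picked for that feature after their levels were seen, the X-linked gene was the lower one. Wholly autosomal pairs also differed in level, such as Ruvbl2 at 111 ± 9.67 and Ruvbl1 at 14.9 ± 0.680, or H2az1 at 78.8 ± 7.88 and H2az2 at 4.34 ± 0.527. Smarca5 (chromosome 8) exceeded X-linked Smarca1 by a ratio of levels per length of 692 ± 78.1 in the vehicle libraries. Rbbp4, a histone chaperone subunit of NURF on chromosome 4, exceeded its X-linked paralog Rbbp7 by a ratio of 17.4 ± 1.44, and Morf4l1, the chromodomain subunit of TIP60-EP400 on chromosome 9, exceeded X-linked Morf4l2 by 51.1 ± 3.79. Reads from near-identical copies can be split or dropped in counting, so the ratios are approximate.

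**Figure D1:**
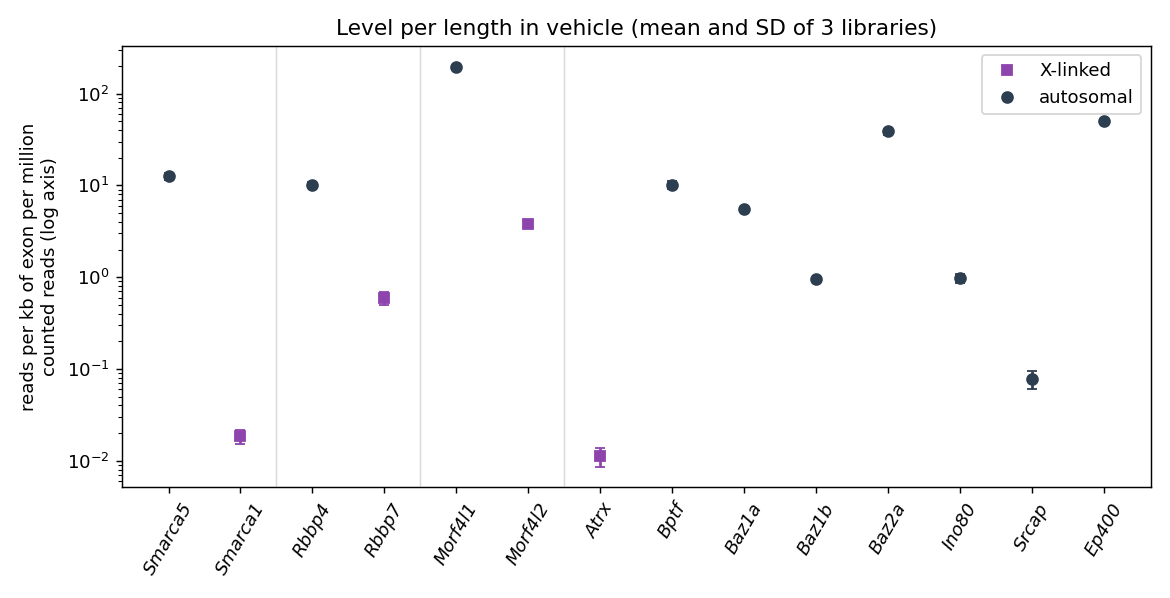
RPKM (reads per kilobase of exon scaled to the counted reads, log axis) in the vehicle libraries, mean (points) and SD (bars) of 3 libraries, with X-linked genes as squares and autosomal genes as circles. The first 6 genes form the paralog pairs Smarca5 and Smarca1, Rbbp4 and Rbbp7, Morf4l1 and Morf4l2, and the X-linked gene is the lower one in each.

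Promoter sequence differed between these genes in CpG content. RefSeq promoter windows (250 bases before to 50 after the start, build GRCm38.p6) were found for 9 of the 10 genes, all but Baz1a. Their number of CpG dinucleotides was 39 for Bptf, 33 for Ep400, 32 for Smarca5, 32 for Ino80, 30 for Baz2a, 27 for Baz1b and 16 for Srcap. The X-linked members held the fewest, 11 for Atrx and 9 for Smarca1, against a median of 7 over all 32851 windows. Ino80, at a level near 1, had as many as Smarca5. Whether the count goes with the level was not tested. The stretches before the start that hold no annotated exon are shown for the ISWI pair and for the highest and lowest gene, with CpG dinucleotides in capitals, 5′ to 3′ on the strand of the gene.
Smarca5, chr8:80739498-80739709, minus strand: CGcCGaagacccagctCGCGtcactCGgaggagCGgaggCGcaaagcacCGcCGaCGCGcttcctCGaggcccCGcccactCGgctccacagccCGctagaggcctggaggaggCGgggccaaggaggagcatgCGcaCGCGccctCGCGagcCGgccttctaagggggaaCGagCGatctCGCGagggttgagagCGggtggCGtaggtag
Smarca1, chrX:47892614-47892863, minus strand: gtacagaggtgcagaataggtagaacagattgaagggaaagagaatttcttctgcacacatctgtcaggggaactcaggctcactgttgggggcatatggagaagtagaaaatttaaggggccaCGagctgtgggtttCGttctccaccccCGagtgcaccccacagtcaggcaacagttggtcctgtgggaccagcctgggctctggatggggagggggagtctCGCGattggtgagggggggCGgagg
Ep400, chr5:110770718-110770948, minus strand: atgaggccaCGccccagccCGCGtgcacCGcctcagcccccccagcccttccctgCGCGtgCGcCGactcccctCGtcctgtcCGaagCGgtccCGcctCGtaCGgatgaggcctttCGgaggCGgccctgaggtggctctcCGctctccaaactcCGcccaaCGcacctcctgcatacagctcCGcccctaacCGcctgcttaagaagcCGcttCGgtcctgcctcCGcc
Atrx, chrX:105929404-105929622, minus strand: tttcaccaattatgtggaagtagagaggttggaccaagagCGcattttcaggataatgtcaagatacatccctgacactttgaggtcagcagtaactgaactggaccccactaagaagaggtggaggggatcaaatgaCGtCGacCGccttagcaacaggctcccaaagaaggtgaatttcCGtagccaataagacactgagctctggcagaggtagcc
These stretches hold 28 CpG in 212 bases for Smarca5, 6 in 250 for Smarca1, 24 in 231 for Ep400 and 5 in 219 for Atrx. Searched on both strands of the full windows, the core letters GCNTGCGC of the NRF1 motif occurred in Smarca5 and Ep400 and in 9.95% of all windows. The letters GCCATNTT of the YY1 motif occurred in Bptf, Baz1b and Atrx and in 6.05% of all windows. TGACGT, the core of CREB and CREM sites, occurred in Smarca1 and Atrx and in 7.51% of all windows, and the ETS letters CCGGAAGT in none of the 9 and in 3.89% of all windows. The coordinates are of RefSeq's build, while the deposited counts were made on GRCm39.

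The first comparison, oxamate against vehicle, asks what inhibition of lactate dehydrogenase did. Of the 10 genes, 2 rose and none fell at a Benjamini-Hochberg adjusted p under 0.05 in the quasi-likelihood test of edgeR, which was run on 25128 genes. Among all genes 3.97% were raised and 1.22% lowered. The genes that rose were Baz2a and Baz1b, which both encode partners of SMARCA5. Baz1a, which encodes another SMARCA5 partner, stood at a log2 fold change of -0.038 (adjusted p = 0.880). The median log2 fold change of the 10 was 0.31, beside -0.011 over all genes tested. It rests in part on Smarca1, Srcap and Atrx, which have few reads. The median was 0.15 over the 7 genes that averaged at least 100 normalized counts, here called well expressed, beside 0.0098 over all 10715 such genes, of which 8.08% were raised.

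Baz2a read 14131, 13682 and 16111 normalized counts with vehicle, 19332, 18856 and 19445 with oxamate, and 20275, 19262 and 18205 with both compounds. All 6 treated libraries lay above the 3 vehicle libraries, and the treated groups overlapped. With oxamate the log2 fold change was 0.40 (SE 0.066, adjusted p = 0.000746), a 1.32-fold rise, which passed the threshold in 16 of 16 alternative analyses. Among the 10 it was the one rise with oxamate that each alternative kept.

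Baz1b, whose product is also a kinase of the histone variant H2A.X, read 430, 477 and 470 with vehicle, 498, 620 and 607 with oxamate and 669, 565 and 600 with both compounds. The oxamate libraries all lay above vehicle, with library 4 the closest. Its log2 fold change with oxamate was 0.33 (SE 0.094), and the adjusted p of 0.0444 was near the threshold. The call was kept in 5 of 16 alternatives and was lost without any 1 of the libraries other than 4, where adjusted p ran from 0.0575 to 0.205.

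Ino80 read 207, 245 and 249 with vehicle and 285, 297 and 270 with oxamate. Its groups did not overlap, but the log2 fold change of 0.29 (SE 0.10) had an adjusted p of 0.113. Such separation, all oxamate libraries above all vehicle libraries, was seen for 3 of the 10 genes (Baz1b, Baz2a and Ino80) and for 11.4% of all genes. The remaining genes overlapped between the groups, and their 95% intervals held 0 but for Srcap, at 0.39 (interval 0.0054 to 0.77, adjusted p = 0.282). The ATPases with many reads had narrow intervals, from -0.067 to 0.28 for Smarca5 and from -0.022 to 0.25 for Ep400, on the log2 scale. Without oxamate library 4, Bptf also passed, at 0.20 (adjusted p = 0.0445).

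**Figure D2:**
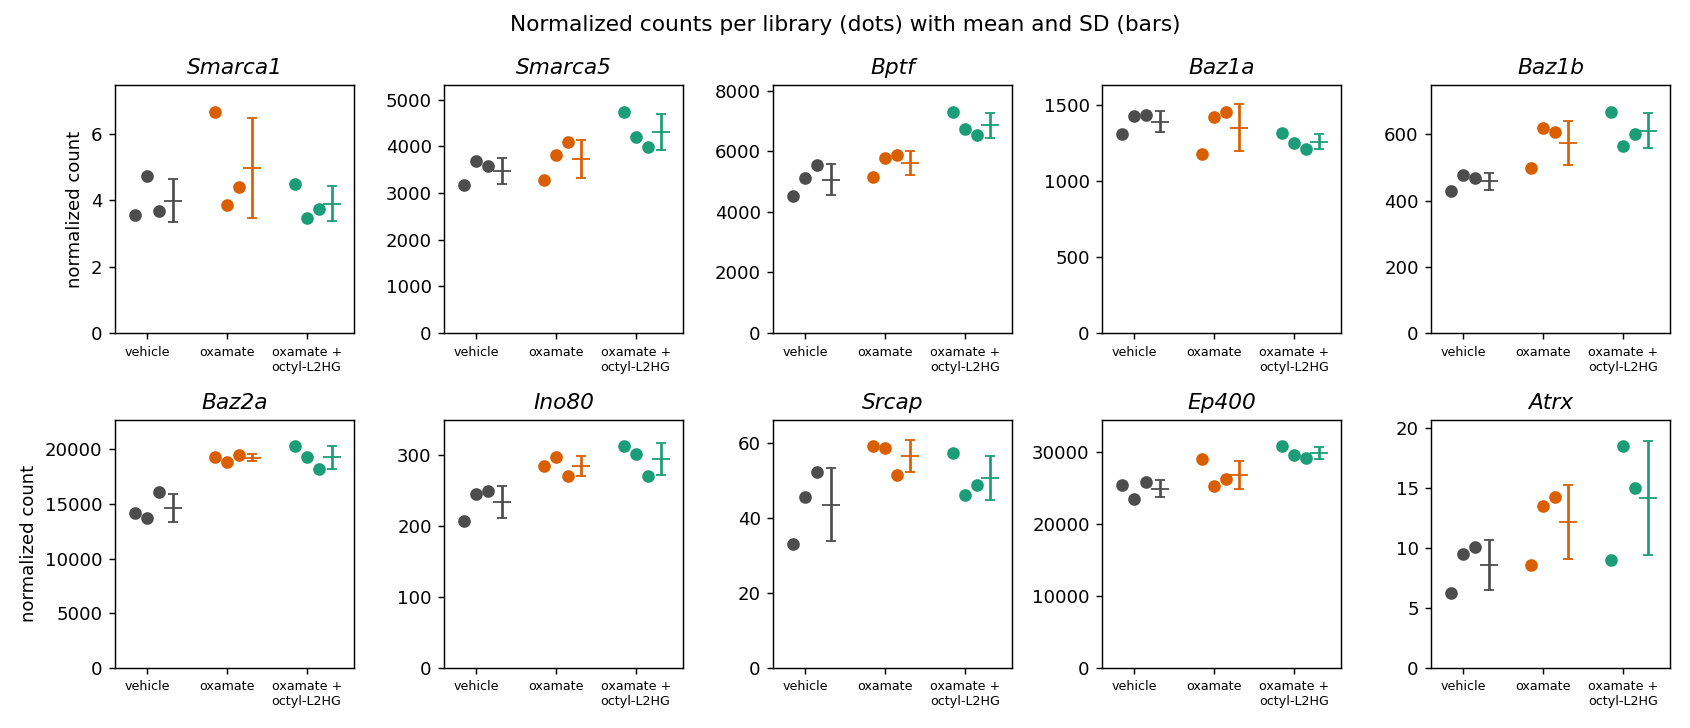
Normalized counts of the 10 genes in each library (dots), with the mean and SD of each group of 3 (line and bars) on linear axes from 0. Baz2a lies between 18205 and 20275 in the 6 treated libraries against 13682 to 16111 with vehicle, while Smarca1 never exceeds 7 counts.

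The second comparison, octyl-L2HG with oxamate against oxamate alone, asks what the added L-2HG ester did. Of the 10 genes 1 rose, Bptf, and none fell, where 3.18% of all genes were raised and 8.06% lowered. Among the 10715 well-expressed genes 7.06% were raised and 12.7% lowered. Bptf read 4539, 5109 and 5559 with vehicle, 5151, 5783 and 5880 with oxamate, and 7316, 6734 and 6531 with both compounds. The libraries with both compounds all lay above the other 6, and oxamate overlapped vehicle. Its log2 fold change against oxamate was 0.27 (SE 0.075, adjusted p = 0.0250 by the same test), and 11 of 16 alternatives kept the call. It was lost without oxamate library 5 (adjusted p = 0.0573) and without library 7, 8 or 9 (0.148, 0.0745 and 0.0507).

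No gene among the 10 was raised by oxamate and lowered again when octyl-L2HG was added. For Baz2a the difference between the 2 treated groups was -0.024 (95% interval -0.16 to 0.11) and for Baz1b 0.064 (-0.13 to 0.26), on the log2 scale. These intervals leave out a fall as large as the rise each gene showed with oxamate. For Ino80, at 0.021, the interval ran from -0.19 to 0.23. Ep400 was the other gene whose libraries did not overlap, with all those given octyl-L2HG above oxamate, at 0.13 (adjusted p = 0.245), and 13.4% of all genes were separated in that direction. Without oxamate library 4, Ep400 passed at 0.19 (adjusted p = 0.0123) and Baz1a passed as lowered, at -0.22 (adjusted p = 0.0243).

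Against vehicle, the cells given both compounds showed the most change. Of the 10 genes 6 rose (Smarca5, Bptf, Baz1b, Baz2a, Ino80 and Ep400) and none fell, where 7.48% of all genes were raised and 10.6% lowered. Among the 10715 well-expressed genes 16.0% were raised. The libraries given both compounds lay above every vehicle library for the same 6 genes, as they did for 18.0% of all genes. The median log2 fold change of the 10 was 0.30, beside -0.045 over all genes tested, and that of the 7 well-expressed genes was 0.31, beside 0.032 over all well-expressed genes. This comparison shares its vehicle libraries with the first and the libraries given both compounds with the second.

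Bptf rose by a log2 fold change of 0.41 (SE 0.076, adjusted p = 0.000448), or 1.33-fold. Baz1b rose by 0.39 (SE 0.094, adjusted p = 0.00507) and Baz2a by 0.37 (SE 0.066, adjusted p = 0.000352). Of the 6, Bptf and Baz2a were called in 16 of 16 alternatives and Baz1b in 15.

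Smarca5, the shared motor of the ACF, CHRAC, WICH and NoRC complexes, read 3162, 3679 and 3569 with vehicle, 3274, 3809 and 4091 with oxamate, and 4744, 4196 and 3987 with both compounds. Oxamate fell between the other groups and overlapped both. Against vehicle the rise with both compounds was 0.29 (SE 0.083, adjusted p = 0.0172), called in 12 of 16 alternatives.

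Ep400 read 25399, 23536 and 25825 with vehicle, 29039, 25289 and 26223 with oxamate and 30826, 29547 and 29251 with both compounds. Library 4 was the highest of oxamate and close to the libraries given both compounds. The rise against vehicle was 0.24 (SE 0.065, adjusted p = 0.0121), and 13 of 16 alternatives called it. Ino80 read 312, 301 and 270 with both compounds, above its vehicle values, and rose by 0.31 (SE 0.10, adjusted p = 0.0368), called in 10 of 16 alternatives.

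Baz1a was the ISWI partner with many reads that did not rise. It read 1315, 1430 and 1436 with vehicle, 1177, 1425 and 1460 with oxamate, and 1317, 1251 and 1216 with both compounds. The groups overlapped, and the log2 fold change with both compounds was -0.17 (95% interval -0.33 to 0.0015, adjusted p = 0.171). Without oxamate library 4, which left this estimate unchanged at 2 decimals, it passed as lowered (adjusted p = 0.0434).

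The 3 genes with few reads could not show changes of this size. Atrx held between 6.22 and 10.1 normalized counts with vehicle, 8.57 to 14.3 with oxamate and 8.98 to 18.4 with both compounds. The groups overlapped, and the 95% interval of its log2 fold change with both compounds ran from -0.043 to 1.44. For Smarca1, at 3.55 to 4.74 with vehicle and 3.46 to 4.49 with both compounds, the interval ran from -1.16 to 1.06. Srcap read 32.9, 45.5 and 52.2 with vehicle and 57.3, 46.1 and 48.7 with both compounds, with an interval of -0.19 to 0.59. A rise like that of Bptf lay inside each of these intervals.

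Single libraries, the scaling and the length of the transcripts moved the count of 6. With total counts as library sizes it was 4, with Smarca5 (adjusted p = 0.0692) and Ino80 (0.103) lost. Without library 7 it was 2 (Bptf and Baz2a), with Baz1b at an adjusted p of 0.0505. It was 4 without vehicle library 1 (Smarca5 and Ino80 lost) or vehicle library 2 (Ino80 and Ep400 lost), 5 without library 8 (Ino80 lost), and 6 without oxamate library 4. Calls over all genes moved too. The share raised, 7.48% in the main fit, was 4.90% with total counts and 4.62% without library 7. It was 5.77% without vehicle library 1, 5.58% without vehicle library 2, 4.81% without library 8 and 11.1% without oxamate library 4.

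All 10 genes have long exons, above 80.5% of the genes tested for Smarca1 and above more for each of the others. When the well-expressed genes were split into 10 deciles by exon length, the median log2 fold change with both compounds against vehicle went from -0.15 in the shortest decile to 0.13 in the longest, and the share raised from 2.15% to 29.6%. With oxamate against vehicle the median went from -0.099 to 0.086 and the share raised from 0.935% to 14.2%. Bptf, Baz1b, Baz2a and Ep400 are in the longest decile, Smarca5 in the next, and Ino80 and Baz1a in the one after it, where 24.6% were raised with both compounds. With an offset for the trend of counts with length, 3 of the 10 genes rose with both compounds (Bptf, Baz1b and Baz2a) and Baz1a fell, at -0.27 (adjusted p = 0.0200), and with oxamate Baz2a alone rose. Of all genes, 5.44% were then raised with both compounds against vehicle and 3.04% with oxamate. Ep400, whose exons span 13971 bases, went from 0.24 to 0.11 (adjusted p = 0.348) under that offset. Smarca5 went from 0.29 to 0.18 (adjusted p = 0.137) and Ino80 from 0.31 to 0.21 (adjusted p = 0.178). The part of length in these results was tested no further.

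**Figure D3:**
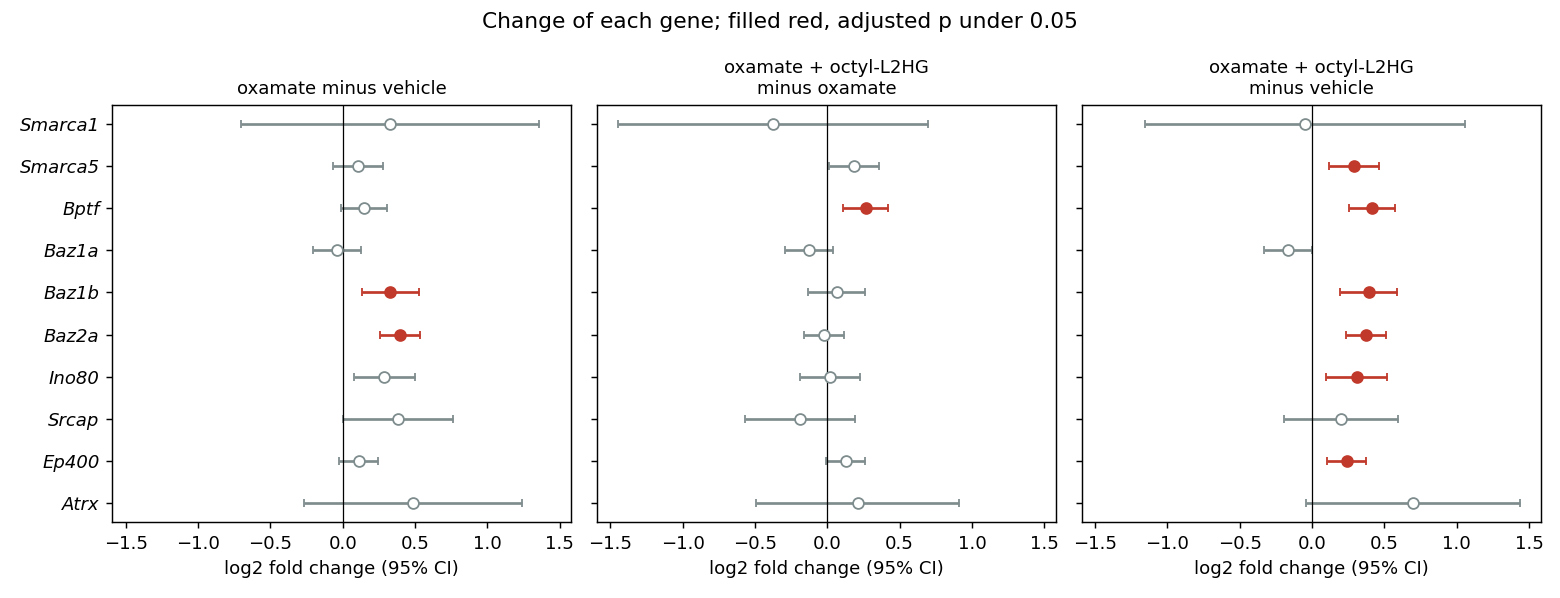
Log2 fold change (points) and 95% confidence interval (bars) of each of the 10 genes in the 3 comparisons, with filled red points at an adjusted p under 0.05. There are 2 red points for oxamate against vehicle, 1 for the addition of octyl-L2HG and 6 for both compounds against vehicle, all to the right of 0.

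**Figure D4:**
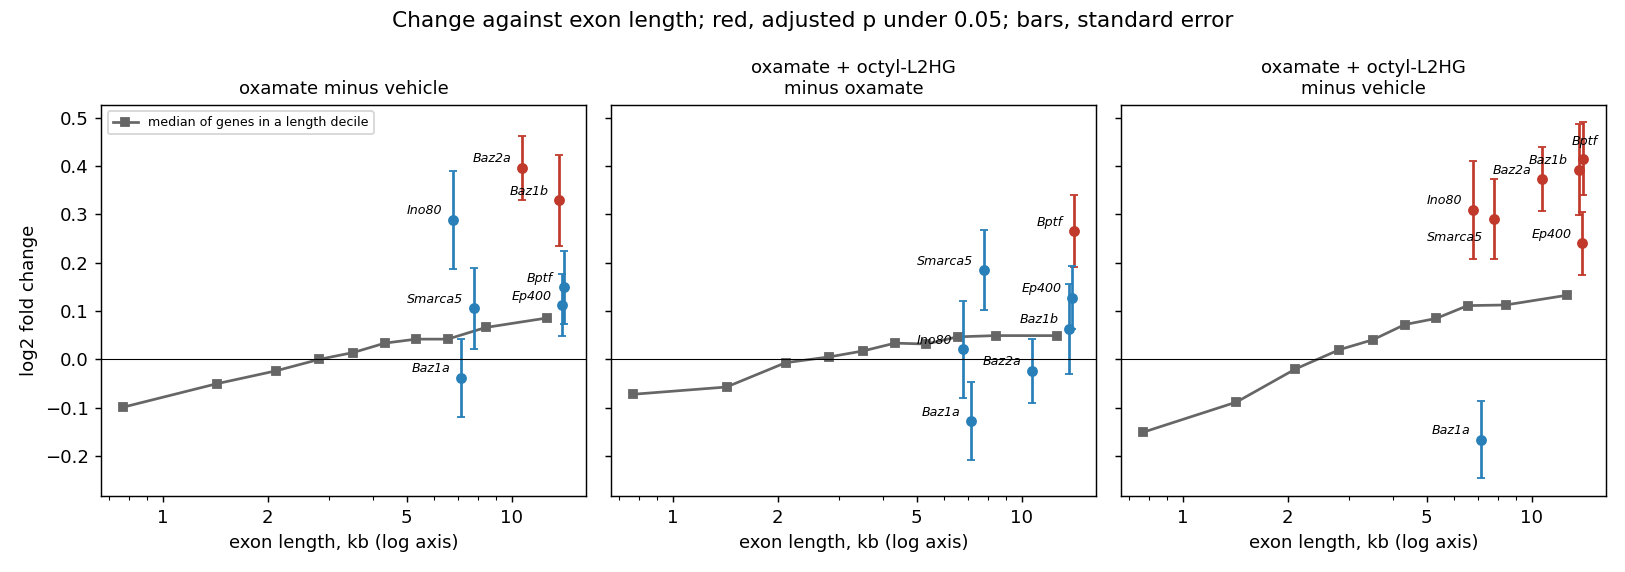
Log2 fold change against exon length in kb (log axis), for deciles of the well-expressed genes by length (grey squares, medians) and for the 7 of the 10 genes that are well expressed (circles, red where adjusted p is under 0.05, bars are standard errors). The medians climb from -0.15 to 0.13 in the right panel, where 6 of the 7 circles lie above the line and Baz1a lies below it.

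A test of any difference among the 3 groups called 5 of the 10 genes, where it called 19.8% of all genes. The 5 are all well expressed, and the share called among well-expressed genes was not computed. These were Baz2a (adjusted p = 0.000212), Bptf (0.00118), Baz1b (0.00885), Ep400 (0.0309) and Smarca5 (0.0396), by edgeR's quasi-likelihood test. Ino80 missed the threshold at 0.0501.

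The balance of the ISWI ATPases was compared as the log2 ratio of Smarca5 to Smarca1 level in each library. The ratio of levels was 700, 611 and 766 with vehicle, 386, 778 and 734 with oxamate, and 831, 955 and 838 with both compounds. All 3 libraries given both compounds were above the others, and oxamate library 4 was the lowest. The mean log2 ratio differed by 0.34 between both compounds and vehicle and by 0.53 between both compounds and oxamate, each with a two-sided exact permutation p of 0.1, the smallest that 3 against 3 libraries allow (0.15 after adjustment over the 3 comparisons). For oxamate against vehicle it differed by -0.19 (exact permutation p = 0.9). With 3 to 7 Smarca1 reads in a library, counting error alone is large in each ratio.

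The other subunits of these complexes, and the histone variants they handle, form a list of 43 genes, of which 39 were well expressed. With oxamate against vehicle 4 rose and none fell, and the median log2 fold change of the 43 was 0.029. The share raised, 9.30%, was close to the 8.08% of all well-expressed genes. Without oxamate library 4, 4 rose and 4 fell, and the count raised was 1 without vehicle library 3, 3 without vehicle library 1 and 2 without any other library. Of all genes, 6.31% were raised and 2.87% lowered without library 4, beside 3.97% and 1.22% in the main fit. Without vehicle library 3, 2.93% were raised. Cecr2, the partner of ISWI in the CERF complex, rose by 0.50 (SE 0.078, adjusted p = 0.000378). Nfrkb, a structural subunit of INO80, rose by 0.38 (adjusted p = 0.0360), Mbtd1, a methyl-histone reader of TIP60-EP400, by 0.31 (adjusted p = 0.0150), and Ruvbl1, an AAA+ ATPase shared by INO80, SRCAP and TIP60-EP400, by 0.26 (adjusted p = 0.0396). Its dimer partner Ruvbl2 stood at -0.082 (adjusted p = 0.709). Of these only the rise of Cecr2 passed in 16 of 16 alternatives, beside 8 for Nfrkb, 10 for Mbtd1 and 6 for Ruvbl1. Without oxamate library 4 the value of Nfrkb was 0.23 (adjusted p = 0.112).

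Adding octyl-L2HG to oxamate raised 2 of the 43 and lowered 3. These shares, 4.65% and 6.98%, were below the 7.06% raised and 12.7% lowered among all well-expressed genes, but the count raised was 7 without oxamate library 4, 0 without library 5 and 1 without library 7. The share of all genes raised, 3.18% in the main fit, was 6.27%, 1.26% and 0.947% in those fits. Nfrkb rose by 0.45 (adjusted p = 0.00611) and Uchl5, the deubiquitinase of INO80, by 0.31 (adjusted p = 0.0121). The genes that fell were Actr6, the actin-related subunit of SRCAP, at -0.40 (adjusted p = 0.0241), H3f3b, 1 of the genes for the H3.3 that ATRX and DAXX deposit, at -0.30 (adjusted p = 0.0186), and Cecr2 at -0.25 (adjusted p = 0.0418). None of the 43 was called as lowered when library 7, 8 or 9 was left out, and 1 was without library 5 or 6, while 3 were without library 4. The share of all genes lowered, 8.06% in the main fit, was 4.56%, 4.83% and 5.41% without library 7, 8 and 9. It was 4.50% without library 5, 6.33% without library 6 and 11.3% without library 4. Over the 16 alternatives the fall of Actr6 was called in 11 and that of H3f3b in 13.

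Cecr2 was the gene in this list called as raised by oxamate and as lowered with octyl-L2HG. It read 2080, 2104 and 2446 with vehicle, 2845, 3136 and 3402 with oxamate and 2866, 2625 and 2544 with both compounds. The libraries given both compounds lay between the other groups, overlapping oxamate at library 4 and staying above vehicle, by 0.26 (adjusted p = 0.0256). The fall was called in 4 of 16 alternatives and the difference from vehicle in 10, with a log2 fold change down to 0.12.

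With both compounds against vehicle, 6 of the 43 rose and 4 fell. The shares of 14% and 9.30% were below the 16.0% raised and 13.6% lowered among all well-expressed genes, and the calls that follow describe single genes. With total counts as library sizes the split was 3 and 8, and with DESeq2's size factors 8 and 4. Of all genes, 4.90% were raised and 13.4% lowered with total counts, and 8.78% and 9.92% with DESeq2's size factors. Nfrkb read 340, 295 and 314 with vehicle, 483, 362 and 384 with oxamate and 554, 572 and 579 with both compounds, and the groups did not overlap. Its rise of 0.82 (SE 0.10, adjusted p = 7.39e-06) was larger than that of any of the 10 ATPases and partners that passed the test.

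In the TIP60-EP400 complex Kat5, the acetyltransferase, rose by 0.32 (adjusted p = 0.00363), Epc1, a scaffold of the catalytic module, by 0.30 (adjusted p = 0.00300) and Mbtd1 by 0.26 (adjusted p = 0.0159). Trrap, the large scaffold of that complex, stood at 0.16 (adjusted p = 0.369). Daxx, the H3.3 chaperone that works with ATRX, rose by 0.24 (adjusted p = 0.0493), close to the threshold, and 9 of 16 alternatives called it. Nfrkb, Kat5 and Epc1 were called in all 16, and Mbtd1 in 11. With the offset for length Mbtd1 stood at 0.13 (adjusted p = 0.186).

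Of the 4 histone variant genes 2 fell, where 13.6% of all well-expressed genes were lowered. H2az2, the less abundant of the H2A.Z genes, fell by 0.40 (adjusted p = 0.0138) and H3f3b fell by 0.29 (adjusted p = 0.0147). H2az1 stood at -0.18 (adjusted p = 0.164) and H3f3a, the other H3.3 gene, at -0.048 (adjusted p = 0.667). Actr6 fell by 0.39 (adjusted p = 0.0177), and Ino80d, an INO80 subunit with 18.7 to 50.4 normalized counts per library that is named here after its values were seen, fell by 0.85 (adjusted p = 0.0106). H2az1, H2az2, H3f3a, H3f3b and Actr6 have exons of 1633 to 3504 bases, in length deciles whose median log2 fold changes ran from -0.088 to 0.041. Rbbp4, shared by NURF and other complexes, stood at -0.059 (adjusted p = 0.723).

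The count of 4 lowered was 0 without library 7, 2 without library 8, library 9 or vehicle library 1, and 9 without oxamate library 4, and that of 6 raised was 3 without library 7 and 11 without library 4. Of all genes, 10.6% were lowered and 7.48% raised in the main fit. These shares were 7.16% and 4.62% without library 7, and 13.5% and 11.1% without library 4. H3.3 and H2A.Z genes have processed copies in the genome, so reads from them may have been dropped or split.

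**Figure D5:**
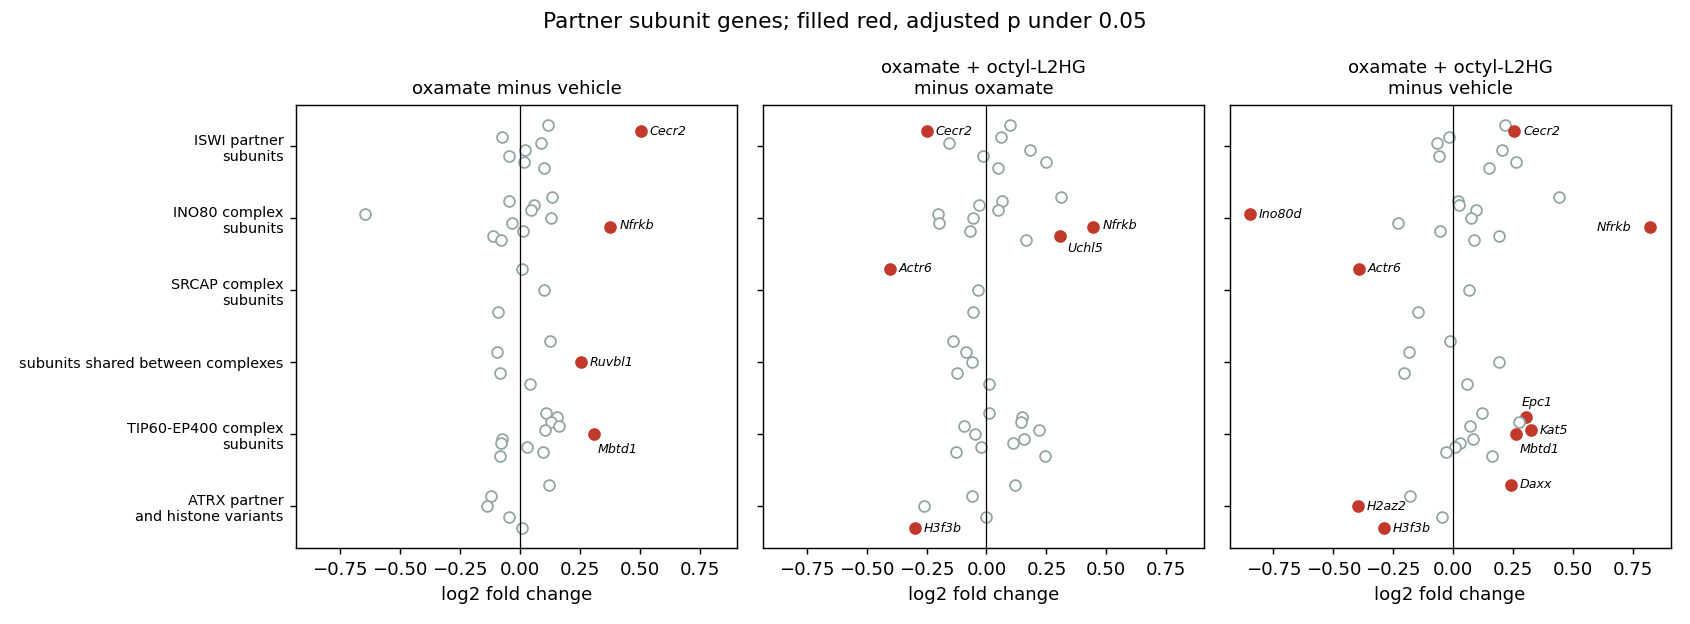
Log2 fold change of the 43 partner subunit and histone variant genes in the 3 comparisons, by complex, 1 circle per gene, filled red and named where adjusted p is under 0.05. In the right panel Nfrkb lies farthest to the right at 0.82 and Ino80d farthest to the left at -0.85.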

How the data were processed

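The authors deposited, per gene and library, read counts from htseq-count without normalization, and a normalized signal, the count divided by a DESeq2 size factor. The submitters' processing notes name cutadapt 2.10, TopHat2 2.1.1, HTSeq 2.01 and DESeq2 1.36.0, and GRCm39. Of 55414 genes listed, 6250 have blank counts and were left out.

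The 25128 genes with at least 10 counts in all were fitted with edgeR 4.0.16 in R 4.3.3 (TMM, quasi-likelihood with robust estimation, group as the only term, all 9 libraries). Genes with an adjusted p under 0.05 were called. The fit was tested on simulated data. Alternatives were DESeq2 1.42.0, other size factors and filters, only the groups compared, an offset for length, and each library left out, 16 in all. Exon lengths came from GENCODE M21 (GRCm38), matched by gene identifier for 99.6% of genes tested. The chi-square per degree of freedom between libraries of a group was at least 1.98, so none was counted as a duplicate.

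All 10 genes are named, as are Ruvbl1, Ruvbl2, Kat5, Trrap, Rbbp4, Daxx, the H2A.Z and H3.3 genes and, in each comparison, the 3 partner genes with the largest called change in each direction at a mean normalized count of at least 100. Members and lists were chosen with earlier results of these data known. Rbbp7, Morf4l1, Morf4l2 and Ino80d fall outside that rule, as do calls of a gene in a comparison where it is not among the 3 largest.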

Additional observations from a re-analysis of the deposited data

How the results depend on the processing

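Of 472 values for the 10 genes under the 16 alternatives, 423 kept their direction and their side of the threshold, 30 lost a call, 6 gained one and 13 changed direction. Those 13 were uncalled values near 0: Baz2a between the treated groups with DESeq2 (0.0027), its size factors (0.0027), no filter (0.021) and without library 9 (range with 1 library left out, -0.059 to 0.0095), Ino80 there with total counts (-0.024), the length offset (-0.016) and without library 6 or 7 (-0.020 to 0.077), Baz1b there without library 4 or 7 (-0.026 to 0.12), Baz1a with oxamate without library 4 (-0.090 to 0.049), and Smarca1 with both compounds against vehicle without library 2 or 8 (-0.15 to 0.091). Smarca1 was removed by edgeR's own filter, and DESeq2 gave no adjusted p for it in the 3 comparisons or for Atrx in the 2 comparisons with the oxamate group. With oxamate against vehicle the count of the 10 raised was 1 with total counts, with only the groups compared and with the length offset. The share of all genes raised was 3.45%, 2.24% and 3.04% in these fits. Partner genes raised were then 1 with only the groups compared and 2 with the length offset, which lowered 1. For the addition of octyl-L2HG the count raised was 0 with total counts and 2 without a filter, where Smarca5 joined (0.23, adjusted p = 0.0295). The share of all genes raised was 1.68% with total counts and 3.85% without a filter. For both compounds against vehicle the length offset gave 3 raised and 1 lowered, and partner genes raised were 12 without a filter, 11 with only the groups compared and 3 with total counts, with 8 lowered. Of all genes, 5.44% were raised with the length offset, 7.25% without a filter, 11.3% with only those groups and 4.90% with total counts. Partner genes lowered for the addition of octyl-L2HG were 2, and raised 3, with DESeq2. No scaling moved the median of all genes by over 0.1.

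With 1 library left out, the 10 genes raised ranged from 1 to 3 with oxamate, 0 to 2 for the addition of octyl-L2HG and 2 to 6 for both compounds against vehicle, and those lowered from 0 to 0, 0 to 1 and 0 to 1. Partner genes raised ranged from 1 to 4, 0 to 7 and 3 to 11, and those lowered from 0 to 4, 0 to 3 and 0 to 9. In the same fits the share of all genes raised ranged from 2.16% to 6.31%, 0.947% to 6.27% and 4.62% to 11.1%. The share lowered ranged from 0.497% to 2.87%, 4.50% to 11.3% and 7.16% to 13.5%. The difference in log2 ratio of Smarca5 to Smarca1 ranged from -0.37 to 0.13 with oxamate, turning positive without library 4, from 0.21 to 0.71 for the addition of octyl-L2HG and from 0.25 to 0.42 for both compounds against vehicle. The cause of these shifts was not tested. The Srcap level rescaled to unshared exon bases (0.204) was an alternative chosen after seeing the data. No paired analysis was possible because the groups share no replicate numbers.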
